A study of Mus musculus with 30 samples.

Results

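The genes described here encode the oxidative phosphorylation machinery of the mitochondrion, measured over the hours of a muscle cell culture. They were chosen by symbol: Nduf, Uqcr and Atp5 genes, Sdha to Sdhd, and Cox4 to Cox8 genes without the muscle isoforms Cox6a2, Cox7a1 and Cox8b. A probe set, the group of short probes that reads out a transcript, counted where its annotation named 1 gene, and each gene was represented by its brightest probe set, from the A chip first. The rule found 87 genes of 18194 with such a probe set, and 85 of them passed the filter on dim probe sets, as did 12445 genes in all. By symbol, 36 members belong to complex I, 4 to complex II, 8 to complex III, 14 to complex IV and 17 to complex V. The remaining 8 are Ndufaf genes, which encode factors that build complex I and are no subunits, so they are kept apart below. The 2 members that did not pass were Cox6b2 and Cox7b2, known as testis isoforms of complex IV subunits.

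The samples were mouse cells in culture, with leg muscle as the labelled source, taken at 0, 4, 12, 24 and 48 h. There were 3 replicates at every hour, and RNA of each was read on 2 Affymetrix chips that hold different probe sets, called A and B, which gives 30 arrays. No strain, genotype, age, medium, treatment or starting event is given in the labels. Hour is thus the only difference between the groups that the labels state, and 0 h served as the control. The labels do not say whether replicates were separate cultures, so p-values measure the spread between arrays, which may be technical.

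The respiratory chain passes electrons from NADH (complex I) and succinate (complex II) through coenzyme Q to complex III, then through cytochrome c to complex IV, where oxygen is reduced. Complexes I, III and IV pump protons, and complex V, the ATP synthase, uses the proton gradient to make ATP. Complex II also works in the tricarboxylic acid cycle. All members are nuclear genes, and the subunits encoded by mitochondrial DNA were not analysed here. In myoblasts that differentiate into myotubes, mitochondrial content is generally known to rise, and some complex IV subunits exist in a general form and a form made in heart and skeletal muscle.

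Each array had been scaled to a 2%-trimmed mean of 500.1 to 500.2, so levels are relative to the array and total RNA per cell is not measured. With bulk RNA, fewer cells of a type and less RNA per cell cannot be told apart. The arrays of replicate 3 stood apart: against replicates 1 and 2 over all hours, 29.7% of the genes tested were called, and 12 of 85 members were (limma, adjusted p under 0.05). The 10 skeletal muscle markers, all tested, summed to 51506.6 to 57428.8 at 0 h, to 69377.9 to 80492.9 at 24 h and to 48915.3 to 82513.5 at 48 h, where replicate 3 was the lowest array. The 9 measured markers of dividing cells summed to 11753.1 to 22136.3 at 0 h, to 6549.3 to 17733.2 at 24 h and to 11845.9 to 19064.8 at 48 h, with replicate 3 highest at each of these hours. Over all A arrays the sums for other cell types were 1974.0 to 4410.3 for fibroblasts, 8670.9 to 19967.0 for smooth muscle and pericytes, 579.0 to 1188.9 for Schwann cells and 496.6 to 882.3 for macrophages. They were 296.6 to 587.6 for endothelium, 132.3 to 311.2 for brown fat and 46.1 to 150.3 for white fat, of which 0 markers were bright enough to be tested. The 3 prime over 5 prime ratio of the Gapdh control lay between 0.794 and 0.863 on every A array. A control probe set for 18S ribosomal RNA read 327.8 to 521.0 at 0 h and 2679.6 to 6122.1 at 48 h on the A chip. The part of these cell types and controls in the results was not tested.

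Transcripts of the respiratory chain and ATP synthase differed little from 0 h in their median at every hour. At 48 h the 85 tested members had a median log2 difference from 0 h of -0.02, and at 24 h of 0.10. Over the 3 arrays of an hour the SD of the members' median was 0.09 at 24 h and 0.23 at 48 h. No member passed the test in any comparison: 0 of 85 at 4 h, at 12 h, at 24 h and at 48 h, 0 between 24 h and 48 h, and 0 in the test over all hours (limma with an intensity trend, Benjamini-Hochberg adjusted p under 0.05). Of all 12445 genes, 0% were called at 4 h and 0% at 12 h, 2.52% at 24 h, 2.04% at 48 h, 0.0402% between 24 h and 48 h and 2% over all hours. Among the 3791 genes with a mean intensity of at least 1000, where 75 members lie, 3.82% were called at 24 h and 3.27% at 48 h. With so few genes called in all, a count of 0 among 85 is close to the background. At an unadjusted p under 0.05 there were 2 members at 4 h, 1 at 12 h, 8 at 24 h, 5 at 48 h, 7 between 24 h and 48 h and 4 over all hours. The share of all genes at this unadjusted threshold is not given here. These counts, and those below at the same threshold, thus show neither more nor fewer members than the background.

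The size of the differences shows more than the calls. At 48 h the 95% interval of the difference lay wholly within 2-fold for 82 of 85 members (96.5%), against 77.2% of all genes tested. The 3 others were Ndufa5, Ndufa4l2 and Ndufaf6. Within 1.5-fold it lay for 62 members (72.9%), against 32.9% of all genes. The corresponding shares at 24 h were 96.5% and 67.1% of the members, against 75.1% and 32.4% of all genes. Intervals of members were also narrower, reaching a median of 0.32 to either side on the log2 scale against 0.47 over all genes, and most members are bright. A narrower interval falls within a limit more easily, and the shares within 2-fold and 1.5-fold were not computed for bright genes alone. From the 10th to the 90th percentile the members' differences at 48 h ran from -0.17 to 0.24, against -0.44 to 0.41 over all genes and -0.45 to 0.36 over genes with a mean intensity of at least 1000. The 85 members thus spread over less than these bright genes did in every comparison with 0 h, which is a description of these arrays and no test.

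**Figure D1:**
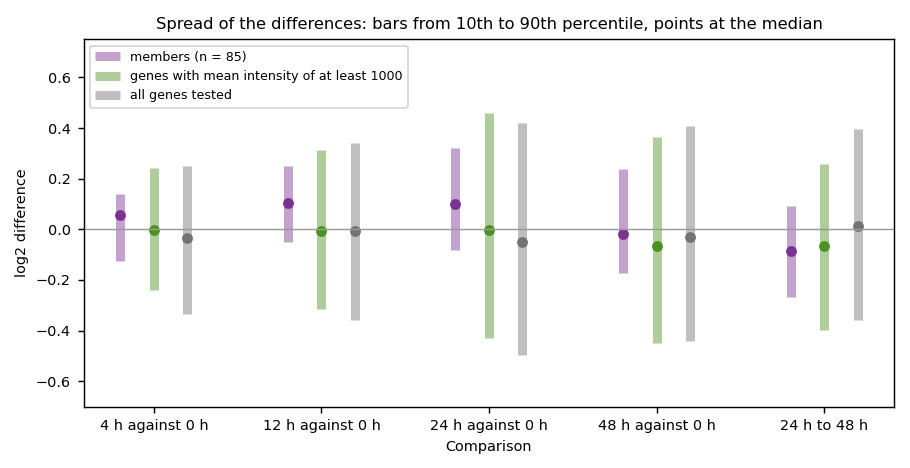
Log2 differences between hours (vertical axis) for the 85 members, for genes with a mean intensity of at least 1000 and for all genes tested; bars run from the 10th to the 90th percentile and points mark the median. The members' bars are the shortest in each comparison, and their median lies at 0.10 at 12 h and 24 h and at -0.02 at 48 h.

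Small differences had a direction at the middle hours. The median log2 difference from 0 h was 0.05 at 4 h, 0.10 at 12 h and 0.10 at 24 h, against -0.03, -0.01 and -0.05 over all genes. At 12 h 71 of 85 members lay above 0 h, and at 24 h 67 did. From 24 h to 48 h the median was -0.09, with 64 of 85 members lower, against 0.01 over all genes and -0.06 over genes with a mean intensity of at least 1000. All comparisons against 0 h share the same 0 h arrays. The 4 h median turned to -0.02 under quantile normalization, while those at 12 h and 24 h stayed above 0 under quantile normalization and median centring. Median centring shifted the median of all genes between 24 h and 48 h by -0.11, which is about the size of the members' shifts.

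**Figure D2:**
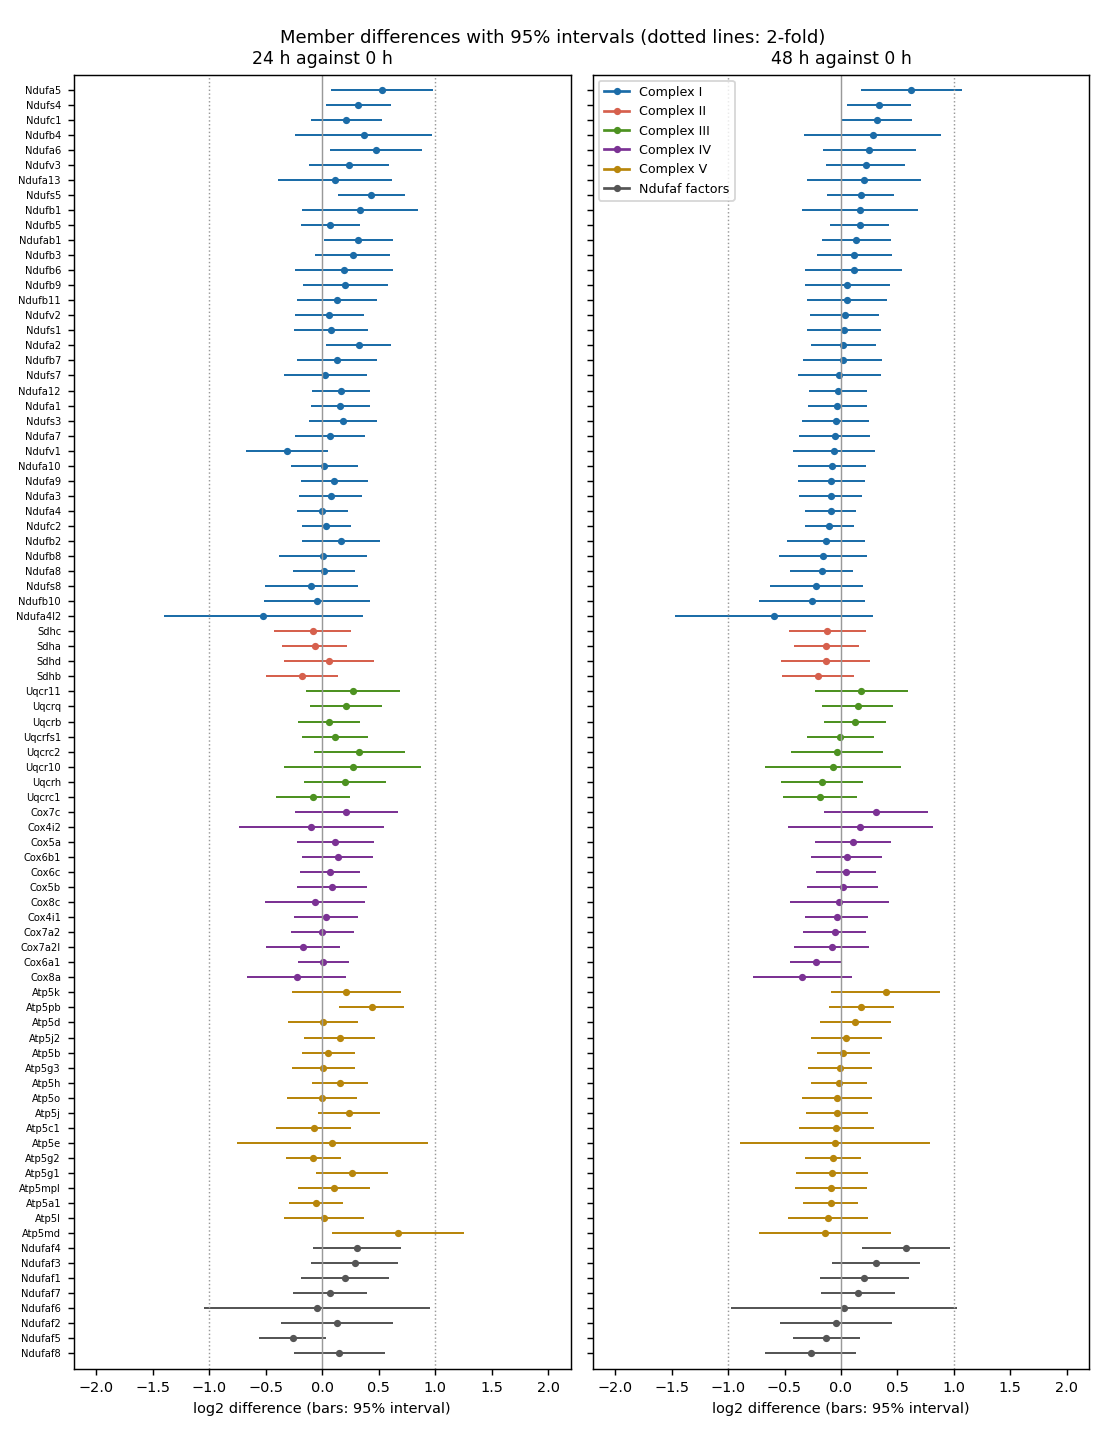
Log2 difference from 0 h of each tested member at 24 h (left) and 48 h (right), with bars for the 95% interval and colours for the complex; dotted lines mark 2-fold. Nearly all bars lie between the dotted lines, and those of Ndufa4l2 and Ndufaf6 are the widest.

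These shifts differed between the replicates. Relative to the mean of the 0 h arrays, the median over members on the 0 h arrays themselves was -0.08, 0.13 and -0.04 in replicates 1, 2 and 3. It was 0.14, 0.05 and 0.13 at 12 h, 0.17, 0.12 and -0.00 at 24 h, and 0.18, 0.06 and -0.27 at 48 h. No array at 12 h lay above the highest 0 h array by more than 0.01, and replicate 3 at 48 h lay below all 0 h arrays. The labels do not say whether replicate numbers pair the arrays. A difference between arrays of the same number carries the level of its 0 h array as well. At 12 h such medians were 0.23, -0.07 and 0.18, with 74, 29 and 70 of 85 members higher, so the direction at 12 h was not shared by replicate 2. At 48 h the median over members against the 0 h array of the same number was 0.26 in replicate 1, with 74 of 85 members higher, and -0.03 in replicate 2, with 36 higher. In replicate 3 it was -0.20, with 14 higher. Over all genes the corresponding medians were 0.00, -0.05 and -0.05. At 24 h the members' medians were 0.27, 0.03 and 0.05 in replicates 1, 2 and 3. Members measured on an array share that array's shift, so such counts are not independent readings. Without replicate 3 the 48 h median was 0.10, with 61 of 85 members higher, so its sign at 48 h rests on replicate 3.

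At 24 h and 48 h the arrays of the 5 complexes overlapped. The median level of the 36 complex I members, relative to 0 h and as mean ± SD over 3 arrays, was 0.11 ± 0.11 at 24 h and 0.01 ± 0.22 at 48 h on the log2 scale. That of the 8 complex III members was 0.20 ± 0.16 at 24 h and 0.00 ± 0.26 at 48 h. Complex IV, with 12 tested members, stood at 0.06 ± 0.02 at 24 h and -0.01 ± 0.25 at 48 h, and complex V, with 17, at 0.13 ± 0.08 and -0.01 ± 0.25. Complex II, with 4 members, was the lowest, at -0.08 ± 0.14 and -0.14 ± 0.21. At 12 h it stood at -0.08 ± 0.01, and its highest array, at -0.06, lay below the lowest array of every other complex (0.06 for I, -0.00 for III, 0.10 for IV and 0.05 for V). The same held at 4 h, where complex II stood at -0.09 ± 0.04. Its highest 4 h array, at -0.066, lay below the lowest of I (-0.055), III (0.02), IV (0.06) and V (-0.01). At 48 h replicate 3 was the lowest array of each of the 5 complexes, and the arrays at 0 h and 48 h overlapped for each of them.

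The complexes were also set against the median of all members on the same array, which removes the shift of the array and leaves the gaps between complexes on it as they were. Complex II was the farthest from the rest, at -0.18 ± 0.03 at 12 h, -0.17 ± 0.12 at 24 h and -0.13 ± 0.04 at 48 h (SD, n = 3), but its 0 h arrays ran from -0.14 to 0.19 and overlapped those of each later hour except 12 h. Complex III lay at 0.10 ± 0.07 at 24 h and complex IV at -0.04 ± 0.07. The means of complexes I and V lay within 0.04 of the whole at every hour, though a single complex I array reached 0.07 at 48 h. With 36 and 17 of the 85 members, complexes I and V weigh most in that median, so their closeness to it is partly built in. These are descriptions over small sets of genes, with no test.

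**Figure D3:**
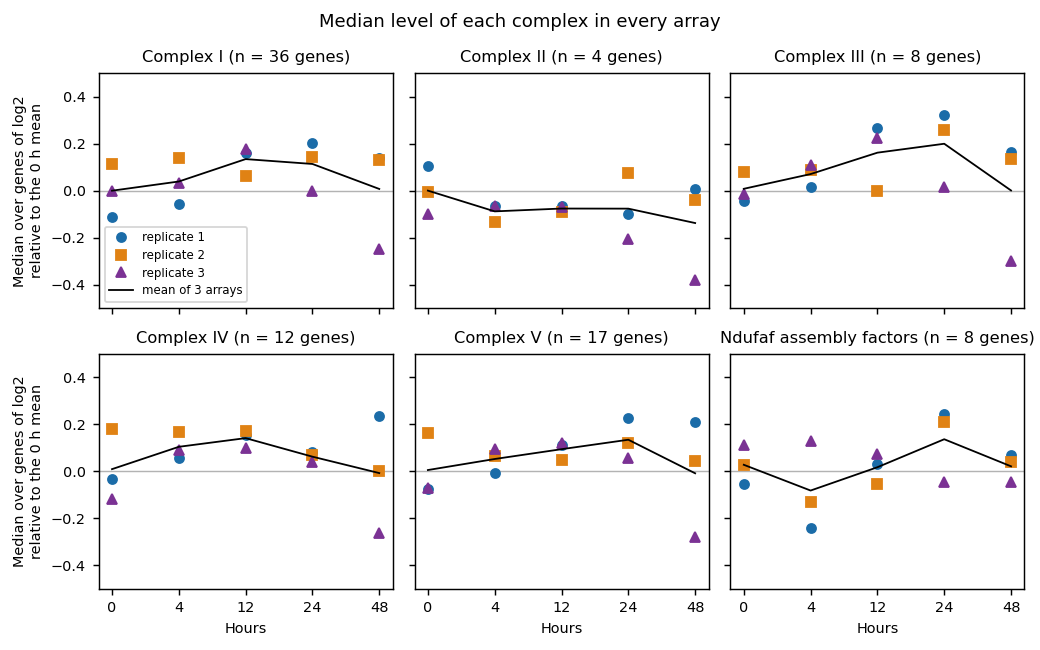
Median over the tested genes of each complex of the log2 level relative to the 0 h mean (vertical axis), at each hour (horizontal axis, evenly spaced), with a symbol per replicate and a line through the mean of the 3 arrays. At 48 h replicate 3 lies lowest in each of complexes I to V, between -0.25 and -0.38, while the other replicates lie between -0.04 and 0.24.

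The hour of the highest mean is also counted by complex, which ranks small differences between hours and carries no test. Of the 36 complex I members 12 were highest at 12 h and 15 at 24 h, and of the 12 complex IV members 6 were highest at 4 h and 5 at 12 h. Of the 8 complex III members 5 were highest at 24 h. All genes tested were highest at 4 h in 16.1%, at 12 h in 16.8% and at 24 h in 19.7%. Over all members 29 of 85 (34.1%) were highest at 24 h and 7 (8.24%) at 0 h, against 19.7% and 26.2% of all genes tested. The lowest mean fell at 48 h in 34 members and at 0 h in 29.

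In complex I, the NADH dehydrogenase and entry point of most electrons, 32 of 36 members lay above 0 h at 24 h and 19 at 48 h, with none called. The median was 0.13 at 24 h and 0.02 at 48 h, and the latter turned to -0.04 under median centring. Ndufa5, an accessory subunit of the arm that reaches into the matrix, had the largest difference at 48 h. Its intensities were 1399.0, 1486.1 and 1977.9 at 0 h in replicates 1, 2 and 3, then 2617.4, 2433.4 and 1974.1 at 24 h and 3287.6, 2661.2 and 1743.4 at 48 h. Replicates 1 and 2 were higher at 48 h than any 0 h array, and replicate 3 was lower at 48 h than at 0 h. The log2 difference at 48 h was 0.62 (95% interval 0.18 to 1.06, limma adjusted p = 0.151). Without replicate 3 it was 1.02 (0.74 to 1.30, adjusted p = 2.18e-04). Its other tested probe set differed by 0.38 at 48 h.

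Ndufs4, an accessory subunit whose loss causes a severe complex I deficiency, was one of the 2 members whose 3 arrays at 48 h all lay above those at 0 h. It read 1276.4, 1563.1 and 1416.3 at 0 h and 1985.9, 1801.7 and 1613.3 at 48 h, a log2 difference of 0.34 (0.06 to 0.61, adjusted p = 0.222). Its 3 other tested probe sets differed by -0.10 to 0.03 at 48 h. Ndufc1, a small subunit of the membrane arm, read 2694.4, 3056.9 and 2871.9 at 0 h and 4367.4, 3514.6 and 3002.1 at 48 h, with a difference of 0.32 (0.01 to 0.62, adjusted p = 0.312). Its highest 0 h array lay above its lowest 48 h array. At the other end Ndufb10, a membrane arm subunit, differed by -0.25 (-0.71 to 0.21), and without replicate 3 by 0.02. The count of members whose groups did not overlap was 3 at 48 h, or 3.53%, against 18.4% of all genes, and 13 at 24 h, or 15.3%, against 20.7%.

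Ndufa4 and its paralogue Ndufa4l2 carry complex I names, although Ndufa4 has since been assigned to complex IV. Ndufa4 read 7169.1, 6878.4 and 7056.9 at 0 h and 7170.5, 7071.4 and 5656.4 at 48 h, which overlap. Its difference was -0.09 (-0.31 to 0.13), so a change of 2-fold in either direction lay outside its interval. Ndufa4l2, known as a target of hypoxia signalling, was dim on the B chip, at 181.7, 417.1 and 487.2 at 0 h and 231.6, 188.2 and 200.1 at 48 h. Its difference of -0.59 had an interval from -1.46 to 0.28, so neither a 2-fold fall nor an absence of change lay outside it. With both genes counted in complex IV, the 48 h medians were 0.02 for complex I and -0.03 for complex IV.

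Complex II, succinate dehydrogenase, was the one complex in which, by the probe sets used, none of the tested members lay above 0 h at 48 h, although no member passed the test. Its 4 differences at 48 h lay between -0.20 and -0.12, and all 4 intervals included 0. Sdha, the flavoprotein that oxidises succinate, read 3170.1, 3255.0 and 2918.6 at 0 h and 3207.9, 3056.9 and 2343.0 at 48 h, where replicate 3 was the low array. Its difference was -0.13 (-0.41 to 0.15), and without replicate 3 it was -0.04. Sdhb, the iron-sulphur subunit, had a difference of -0.20 (-0.51 to 0.10), and the membrane anchors Sdhc and Sdhd of -0.12 (-0.45 to 0.21) and -0.14 (-0.52 to 0.25). For Sdhd this rests on the probe set used: its other tested probe set differed by 0.32, and their average by 0.09. At 24 h the complex II median was -0.08, and it turned to 0.01 under median centring.

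In complex III, which passes electrons from coenzyme Q to cytochrome c, 7 of 8 members lay above 0 h at 24 h and 3 at 48 h. The largest difference at 48 h was that of the small subunit Uqcr11, at 0.18 (-0.23 to 0.59). Uqcr11 read 2841.9, 4079.5 and 3275.4 at 0 h and 4673.6, 4401.6 and 2695.3 at 48 h, with replicates 1 and 2 above and replicate 3 below all 0 h arrays. Uqcrq and Uqcrb, both small subunits near the quinone site, differed by 0.15 (-0.16 to 0.46) and 0.12 (-0.14 to 0.39). The core protein Uqcrc1 and the hinge protein Uqcrh differed by -0.19 (-0.51 to 0.13) and -0.17 (-0.52 to 0.18). Uqcr10 was lower in replicate 3 over all hours by 0.50 on the log2 scale.

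In complex IV, cytochrome c oxidase, no general subunit passed the test, while Cox6a2 and Cox8b, muscle isoforms that the gene rule leaves out, rose. The complex IV median at 48 h was 0.00, and -0.06 under median centring. Cox6a1 read 9038.8, 10117.3 and 8408.6 at 0 h and 7647.1, 8073.9 and 7831.0 at 48 h, where all 3 arrays lay below all 0 h arrays. The difference was small, -0.22 (-0.44 to -0.01, adjusted p = 0.315). Its muscle counterpart Cox6a2 read 258.8, 275.0 and 657.9 at 0 h, 2276.2, 2281.4 and 1666.1 at 24 h and 3085.6, 2449.1 and 1618.5 at 48 h. Cox6a2 rose by 2.58 on the log2 scale at 48 h, 5.96-fold (1.87 to 3.28, limma adjusted p = 0.00227), with no overlap between 0 h and 48 h.

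Cox8a read 6239.1, 9007.1 and 6641.6 at 0 h and 7542.3, 5736.8 and 4213.2 at 48 h, which overlap, and its difference was -0.34 (-0.77 to 0.09). Cox8b, the muscle counterpart, read 228.7, 185.0 and 506.6 at 0 h and 1720.9, 1585.5 and 621.7 at 48 h. It rose by 1.99, 3.96-fold (1.16 to 2.81, adjusted p = 0.0173), but the call was lost when replicate 1 or 2 of 0 h or of 48 h was left out, with limma adjusted p-values of 0.0822 to 0.114. Cox7a2 read 9426.3, 11769.4 and 9672.2 at 0 h and 11494.1, 9763.0 and 8501.4 at 48 h, a difference of -0.06 (-0.33 to 0.21). Its muscle counterpart Cox7a1 was too dim to be tested, at 58.3, 61.2 and 63.6 at 0 h and 113.1, 103.0 and 75.7 at 48 h. The summed skeletal muscle markers were higher at 24 h, at 69377.9 or more on each array, than on any 0 h array (at most 57428.8). At 48 h they reached 82513.5, but replicate 3, at 48915.3, lay below every 0 h array, and their part in these rises was not tested.

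Within an array Cox6a2 and Cox8b gained on their general counterparts at 48 h. The log2 ratio of Cox6a2 to Cox6a1 was higher than at 0 h by 2.80 and that of Cox8b to Cox8a by 2.33. No ratio is given for Cox7a1, which was too dim. In each of the 2 pairs all 3 arrays at 48 h lay above all 3 at 0 h, and the exact permutation p was 0.1, the smallest that 3 arrays against 3 allow (two-sided). Adjusted by Benjamini-Hochberg over the 6 comparisons computed at 24 h and 48 h, those of Cox7a1 among them, the exact p was 0.12 for both pairs at both hours. These genes were picked with their behaviour known, so the values describe the pairs.

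**Figure D4:**
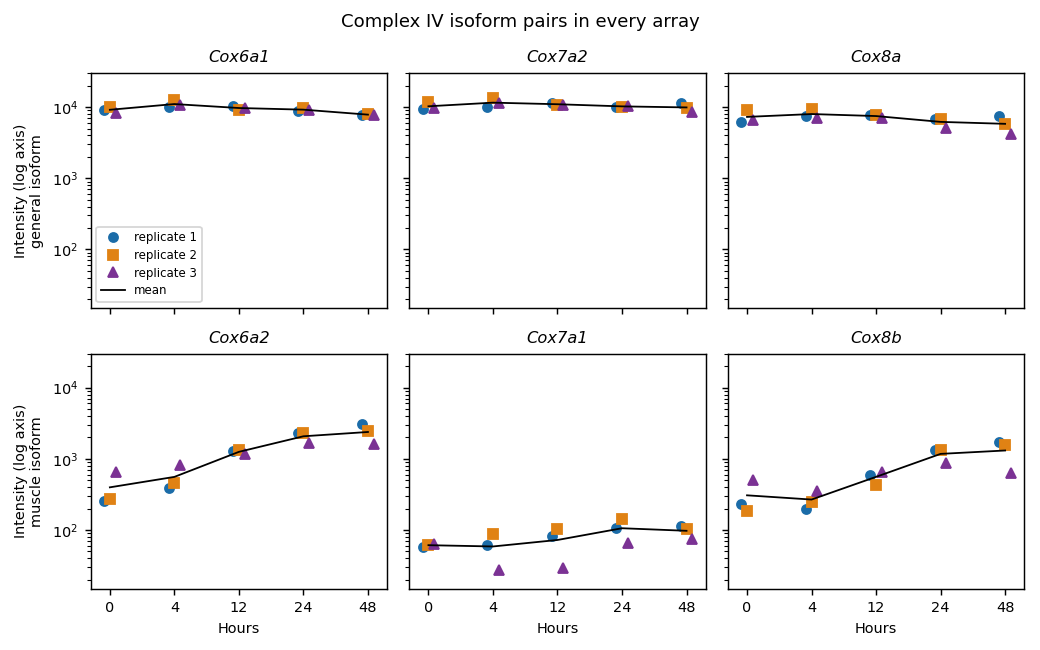
Intensities on a log axis of 3 general complex IV isoforms (top) and their muscle counterparts (bottom) at each hour, with a symbol per replicate and a line through the mean. The general isoforms lie between 4213.2 (Cox8a) and 13342.0 (Cox7a2) on every array, while Cox6a2 and Cox8b climb most in replicates 1 and 2 and start highest at 0 h in replicate 3.

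The promoter windows of the Cox8 pair are shown because the data separate these paralogues. They were taken from RefSeq on GRCm38.p6 and run from 250 bases before to 50 bases after the gene's start, 5′ to 3′ on the gene's strand. Capitals mark words of a motif search on both strands. In Cox8a (chr19:7217567-7217866, minus strand) they mark ACTTCCGG, the reverse complement of CCGGAAGT, the word of the ETS factor GABPA. In Cox8b (chr7:140900397-140900696, minus strand) they mark CAGCTG, an E-box that muscle basic helix-loop-helix factors can bind, and TATAAA, the TATA box word. No other word searched was found in either window.
Cox8a: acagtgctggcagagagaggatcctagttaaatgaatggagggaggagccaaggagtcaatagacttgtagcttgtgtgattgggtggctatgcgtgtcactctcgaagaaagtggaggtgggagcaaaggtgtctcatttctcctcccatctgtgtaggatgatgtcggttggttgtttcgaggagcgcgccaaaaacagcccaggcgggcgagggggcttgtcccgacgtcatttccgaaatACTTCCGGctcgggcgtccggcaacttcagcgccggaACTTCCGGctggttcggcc
Cox8b: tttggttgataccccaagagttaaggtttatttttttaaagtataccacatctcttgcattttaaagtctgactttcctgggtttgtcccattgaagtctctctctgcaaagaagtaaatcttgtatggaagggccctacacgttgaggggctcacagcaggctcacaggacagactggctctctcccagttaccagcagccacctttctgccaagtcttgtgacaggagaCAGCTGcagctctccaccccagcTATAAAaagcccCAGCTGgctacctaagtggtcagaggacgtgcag
The ETS words of Cox8a lie from -6 to 2 and from 32 to 39 relative to the start, counted without a base 0. The E-boxes of Cox8b lie from -19 to -14 and from 17 to 22, and its TATA word from 5 to 10, after the annotated start. A match of letters is no evidence of binding.

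Cox4i1, the general form of the largest nuclear subunit, read 6533.8, 8169.7 and 6468.7 at 0 h and 8161.8, 6659.7 and 5864.6 at 48 h, with a difference of -0.04 (-0.31 to 0.23). Its lung form Cox4i2 was dim throughout, between 79.6 and 254.8, with a wide interval of -0.46 to 0.80 around 0.17. Cox6b1 differed by 0.05 (-0.25 to 0.36), and its testis form Cox6b2 stayed between 27.8 and 168.7 and was not tested. Cox5a differed by 0.11 (-0.22 to 0.44). Cox7a2l, a factor of supercomplexes with a subunit-like name, differed by -0.08 (-0.40 to 0.24). Cox7c had the largest positive difference of complex IV, 0.31 (-0.14 to 0.76), but the probe set read only 73.3 to 159.1 on any array.

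In complex V, the ATP synthase, 13 of 17 members lay above 0 h at 24 h and 5 at 48 h, with medians of 0.09 and -0.03. Atp5pb, subunit b of the stalk that holds the enzyme's head, read 4534.5, 3874.3 and 3887.5 at 0 h, 5812.7, 5302.5 and 5529.2 at 24 h and 4736.8, 5505.3 and 3823.0 at 48 h. All 24 h arrays lay above all 0 h arrays, and at 48 h they overlapped again. Its difference at 24 h was 0.44 (0.16 to 0.72, adjusted p = 0.0984). Atp5md, a small membrane subunit, read 2452.8, 2136.6 and 1728.6 at 0 h, 4571.6, 2957.9 and 2744.0 at 24 h and 1651.5, 3056.3 and 1333.6 at 48 h. The 24 h arrays were higher, by 0.67 (0.09 to 1.25, adjusted p = 0.225), and at 48 h the difference was -0.14 (-0.72 to 0.44).

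The 3 genes of the c ring, Atp5g1, Atp5g2 and Atp5g3, encode the same mature protein. At 48 h they differed from 0 h by -0.08 (-0.39 to 0.23), -0.07 (-0.31 to 0.17) and -0.01 (-0.28 to 0.27). At 24 h Atp5g1 was higher on all 3 arrays, with 4468.7, 4659.7 and 4384.2 against 3200.3, 4204.6 and 3918.5 at 0 h, a difference of 0.26 (-0.05 to 0.57). Atp5k had the largest positive difference at 48 h in complex V, 0.40 (-0.08 to 0.87), with 7855.8, 5650.6 and 3813.1 against 3664.8, 4751.7 and 4240.3. Replicates 1 and 2 lay above and replicate 3 within the 0 h range. The other tested probe sets of Atp5k differed by 0.03 to 0.28, and the one used carries a mark for possible cross-hybridisation. Atp5d, in the central stalk, differed by 0.13 (-0.17 to 0.43), and Atp5l, subunit g, by -0.11 (-0.46 to 0.23). Atp5e was lower in replicate 3 over all hours by 0.87 on the log2 scale (limma adjusted p = 2.34e-05), from 982.1 to 1624.7 there against 1856.5 to 2908.9 on the other arrays.

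Of the 8 complex I assembly factors, 6 lay above 0 h at 24 h and 5 at 48 h, with none called. Ndufaf4, which acts early in assembly, read 1156.0, 908.0 and 1525.9 at 0 h and 1576.7, 1812.4 and 1906.0 at 48 h, and every 48 h array lay above every 0 h array. The difference was 0.58 (0.19 to 0.96, adjusted p = 0.129). Its partner Ndufaf3 differed by 0.31 (-0.07 to 0.69) and Ndufaf1 by 0.21 (-0.17 to 0.59). Ndufaf8 and Ndufaf5, which work together on a core subunit, differed by -0.27 (-0.66 to 0.13) and -0.13 (-0.41 to 0.16). The other tested probe set of Ndufaf8 differed by 0.01. Ndufaf6 was higher in replicate 3 by 1.11 over all hours (limma adjusted p = 5.3e-06), from 2122.0 to 2534.8 there against 735.6 to 1485.8 on the other arrays. Its interval was the widest of all members.

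With replicate 3 entered as a term of the model, a few members passed the test. At 24 h these were Ndufa6, Ndufs5 and Atp5pb, 3 of 85 where 11.3% of all genes were called. At 48 h they were Ndufa5 and Ndufaf4, 2 of 85 where 8.9% were, and all of these were higher than at 0 h. Over all hours Cox6a1 and Ndufaf4 were called, against 12.5% of all genes. No member was called at 4 h, at 12 h or between 24 h and 48 h, where 0%, 0.924% and 2.59% of genes were. At an unadjusted p under 0.05, 4, 4 and 7 members were, with no share over all genes to set beside them. The share of members called was thus below the background in each of these comparisons with calls. Those named by these fits alone were chosen after their values were seen.

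In replicates 1 and 2 alone, 1 member was called at 12 h (Ndufa5), 4 at 24 h (Ndufa5, Ndufa6, Ndufb1 and Ndufs5) and 3 at 48 h (Ndufa5, Ndufaf4 and Ndufc1). All were higher than at 0 h. The test over all hours called 5 and those at 4 h and between 24 h and 48 h called 0 each. At an unadjusted p under 0.05 these last 2 had 2 members each, again without the share over all genes. Of all genes 3.33% were called at 12 h, 13.2% at 24 h, 11.7% at 48 h, 15.8% over all hours, 0.129% at 4 h and 4.65% between 24 h and 48 h. With arrays weighted by their quality, 8 members were called at 24 h, 2 at 48 h and 9 over all hours, against 13.4%, 8.43% and 15.9% of all genes. In none of these fits with 24 h or 48 h calls did the members exceed the background share.

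Ndufa6, a subunit of the matrix arm, read 1885.0, 2188.7 and 1750.1 at 0 h and 3019.1, 3087.5 and 2106.0 at 24 h. Replicates 1 and 2 lay above all 0 h arrays and replicate 3 within their range. With the term for replicate 3 the difference was 0.48 (0.22 to 0.73, adjusted p = 0.0168). Ndufs5, a subunit of the membrane arm, read 2366.2, 2536.6 and 2729.8 at 0 h and 3618.9, 3437.9 and 3288.9 at 24 h, without overlap. Its difference was 0.44 (0.17 to 0.71, adjusted p = 0.0321). At 48 h, with the term for replicate 3, Ndufaf4 had an adjusted p of 0.021 and Ndufa5 of 0.0464.

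**Figure D5:**
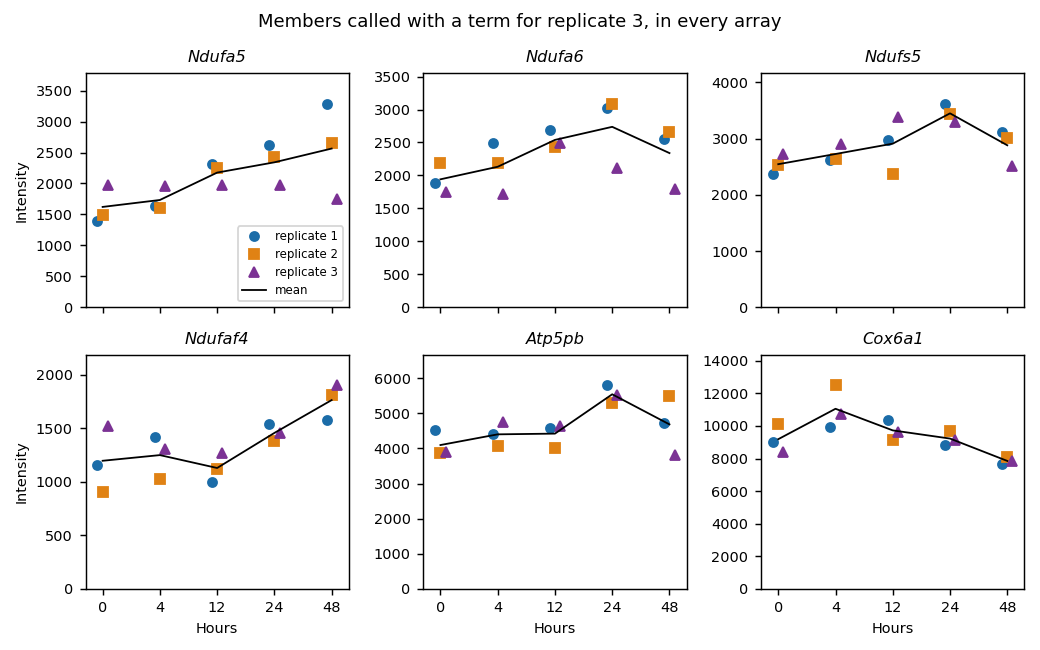
Intensities (linear axes from 0) by hour of the 6 members called in a model with a term for replicate 3, with a symbol per replicate and a line through the mean. Ndufa5 is highest at 48 h in replicates 1 and 2 and stays between 1743.4 and 1977.9 in replicate 3, and Ndufaf4 is higher at 48 h than at 0 h in every replicate.

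Between replicate 3 and the others, 3 members were higher and 9 lower, and the median over 85 members was -0.10, with 67 below 0, against -0.01 over all genes. Atp5e, Uqcr10, Ndufb1, Ndufa6, Cox8a, Atp5l, Ndufs1, Cox7a2l and Sdha were lower, and Ndufaf6, Ndufb6 and Ndufaf2 higher. The called members lay in each complex, with 4 in complex I, 1 each in complexes II and III, 2 each in complexes IV and V and 2 among the Ndufaf genes.

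The main model, without a term for replicate 3, also called none of the listed genes that work with these complexes. There were 10 further lists (assembly factors of each complex, cytochrome c and coenzyme Q synthesis, the tricarboxylic acid cycle, carriers and regulators of mitochondrial biogenesis). Of their 93 tested genes 0 were called at 24 h or 48 h. At an unadjusted p under 0.05 there were 11 and 4, without the share over all genes. Of all genes 2.52% and 2.04% were called, so a count of 0 among 93 is close to the background. Cytochrome c (Cycs) differed by 0.16 (-0.16 to 0.49) at 48 h and citrate synthase (Cs), often used as a measure of mitochondrial content, by 0.11 (-0.18 to 0.39). The coactivator Ppargc1a was dim, at 59.0 to 162.2, and differed by 0.29 (-0.24 to 0.82). The nuclear receptor Esrra differed by -0.07 (-0.53 to 0.39) and Tfam, which packages and transcribes mitochondrial DNA, by 0.07 (-0.23 to 0.37). Cyc1, the complex III subunit that the symbol rule does not reach, differed by -0.09 (-0.40 to 0.22).

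With the term for replicate 3, 4 genes of these lists were called higher and 1 lower at 24 h, of 93 (5 calls), where 11.3% of all genes were called. Sucla2, a subunit of the enzyme that makes succinate in the cycle, rose by 0.51 (0.27 to 0.75, adjusted p = 0.00666), and Idh2, mitochondrial isocitrate dehydrogenase, fell by 0.62 on the log2 scale (adjusted p = 0.00447). Both also passed at 48 h. Coq8a, needed for coenzyme Q synthesis, rose by 0.89 (0.36 to 1.43, adjusted p = 0.0283). The other calls at 24 h were Sco1 and Dld, both higher. Medians at 48 h were 0.12 for the 13 genes of cytochrome c and coenzyme Q synthesis, -0.02 for 17 genes of the cycle and 0.05 for 6 carriers of ATP and phosphate. For assembly factors they were 0.02 in complex II, 0.05 in III, -0.06 in IV and -0.12 in V. The 16 biogenesis regulators and the 9 further assembly factors of complex I had medians next to 0.

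The other genes named by rule at 48 h, those with the smallest adjusted p in their list, had intervals that included 0. Among assembly factors these were Tmem126a at 0.17, Ecsit at 0.19, Sdhaf3 at 0.26, Sdhaf4 at -0.19, Bcs1l at -0.35, Uqcc1 at 0.27, Sco2 at -0.38, Cmc1 at -0.24, Fmc1 at -0.28 and Tmem70 at -0.17. The others were Coq5 at 0.36, the carriers Slc25a3 and Slc25a5 at 0.18 and 0.17, and the coactivator Pprc1 at 0.25. Uqcc1 and Coq5 were called in replicates 1 and 2 alone, with differences of 0.47 and 0.58.

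Probe sets of a gene differed by as much as many members' differences from 0 h, and averaging them turned the sign of Sdhd, Cox5a and Cox6b1 at 48 h. Of the 46 members with more than 1 tested probe set, the largest gap between the one used and another had a median of 0.15 at 48 h and a highest value of 0.46, and 0 gaps exceeded 0.5. At 24 h 2 did, in Ndufab1 and Cox6c. Of 157 tested member probe sets, 0 were called in any comparison. At an unadjusted p under 0.05 there were 8 at 48 h and 15 at 24 h, without the share over all probe sets. With 1 probe set per gene, 2.52% of all genes were called at 24 h and 2.04% at 48 h, so the 0 calls are close to the background. The probe sets used for 18 members carry a mark for possible cross-hybridisation, and 10 probe sets that name several genes, a member among them, were left out.

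Of the 87 members, 72 had a promoter window in the RefSeq table, 67 of them a single one. The word GCGCATGC of NRF1, a factor known to act on nuclear genes of the respiratory chain, was found on either strand in 11 of 72 members (15.3%). It was found in 5.89% of the 10060 tested genes with a window and in 3.05% of all 27025 genes in the table. The YY1 word AAGATGGCG was in 7 members (9.72%), against 3.43% and 1.64%, and the core word AAGGTCA of estrogen-related receptors in 8 (11.1%), against 3.94% and 5.38%. The ETS word CCGGAAGT was in 5 members (6.94%), against 8.51% and 4.31%, and the E-box CAGCTG in 5 (6.94%), against 18.3% of both. SP1's GGGCGG was in 35 members (48.6%), below the 66.6% of tested genes and above the 38.2% of all genes. TATAAA was in 7 (9.72%), against 9.29% and 15.7%. The words may overlap each other, and these shares carry no test.

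The NRF1 words are given for the members that hold one, since the word was found in members of each complex and among the assembly factors. Capitals mark the word or its reverse complement GCATGCGC, which overlap where the capitals run on. Each stretch lies around the first word of the window, and Ndufaf4 holds a further one at positions 2 to 9 from its start. The stretches, on GRCm38.p6, are Atp5g2 at chr15:102671071-102671100 on the minus strand, Atp5k at chr5:108434431-108434460 on the minus strand, Atp5l at chr9:44920964-44920992 on the minus strand, Ndufa6 at chr15:82354356-82354385 on the minus strand, Ndufa8 at chr2:36049328-36049357 on the minus strand, Ndufaf4 at chr4:24897959-24897988 on the plus strand, Ndufaf5 at chr2:140170651-140170680 on the plus strand, Sdhb at chr4:140961206-140961235 on the plus strand, Uqcr11 at chr10:80406807-80406836 on the minus strand, Uqcrc1 at chr9:108936667-108936696 on the plus strand.
Atp5g2: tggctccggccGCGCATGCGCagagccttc
Atp5k: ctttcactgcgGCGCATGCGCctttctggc
Atp5l: aaccaataacGCATGCGCatttcccccac
Ndufa6: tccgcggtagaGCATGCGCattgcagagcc
Ndufa8: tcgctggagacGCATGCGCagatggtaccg
Ndufaf4: cccagatgtctGCGCATGCGCctgtgcgga
Ndufaf5: tagtcccgttgGCGCATGCGCctaatagaa
Sdhb: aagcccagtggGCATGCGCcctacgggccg
Uqcr11: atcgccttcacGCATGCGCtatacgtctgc
Uqcrc1: gactccgctctGCGCATGCGCagcgcggct
Cox6a1: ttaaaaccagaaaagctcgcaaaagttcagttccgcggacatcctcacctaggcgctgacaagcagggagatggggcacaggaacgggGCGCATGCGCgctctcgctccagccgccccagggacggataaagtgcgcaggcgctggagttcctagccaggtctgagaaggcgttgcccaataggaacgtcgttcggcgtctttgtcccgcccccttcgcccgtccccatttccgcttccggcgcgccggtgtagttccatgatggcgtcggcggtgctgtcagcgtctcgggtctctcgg
In Cox6a1 (chr5:115348909-115349208, minus strand) the word lies from -162 to -155 and its reverse complement from -160 to -153. The 11 holders include Ndufa6 and Ndufaf4, named above, as well as Uqcr11, Atp5k, Sdhb and Cox6a1, whose differences at 48 h ran in both directions. The windows of Cox7a1 and Cox8b hold no NRF1 word. Members without a window were Ndufa2, Ndufa4l2, Ndufb9, Ndufs1, Sdhc, Uqcrb, Uqcrc2, Uqcrq, Cox4i1, Cox4i2, Cox6c, Cox8c, Atp5a1, Atp5mpl and Ndufaf6.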

How the data were processed

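Total RNA of 15 samples was hybridised to A and B chips under the manufacturer's standard protocol, per the labels. The deposited values are linear intensities per probe set, which the authors' files hold at a common 2%-trimmed mean near 500 (500.1 to 500.2). For the scanner software and probe set summary, the method was not stated in the labels. Each chip was treated apart: values were taken to log2(intensity + 29) on A and log2(intensity + 54) on B, the 20th percentile of that chip, so folds of dim genes are understated. The upper 60% of probe sets by mean were tested with limma 3.58.1 in R 4.3.3 (lmFit, eBayes with trend) over all hours without a block, and p-values were adjusted per chip and comparison by Benjamini-Hochberg. Genes were named through the platform annotation given with the series. Shares of all genes use 1 probe set per gene. The model was tested on simulated data. Named genes were, by rule, those with the largest differences at 48 h in each complex, a list of subunits and isoforms, and the genes of smallest p in each further list. The members and lists were chosen with earlier results of these data known. Fits with a term for replicate 3, without replicate 3, with array weights and with other scalings were alternatives. Intensities carry no counting depth, and the number of arrays limits the precision. Promoter windows came from RefSeq.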

Additional observations from a re-analysis of the deposited data

Results flagged for a closer look

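A control probe set for the 3 prime end of 18S ribosomal RNA, which enters no comparison above, was higher at 48 h than in the 0 h control arrays. On the A chip it read 3948.2 ± 1891.4 (SD, n = 3) at 48 h, between 2679.6 and 6122.1, against 453.2 ± 108.7 at 0 h, between 327.8 and 521.0. On the B chip it read 19893.5 ± 11328.8 at 48 h, between 12396.7 and 32925.8, against 2465.7 ± 495.9 at 0 h, between 2028.7 and 3004.6. The groups did not overlap on either chip. Its part in the members' values at 48 h was not tested.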

How the results depend on the processing

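Each alternative changed 1 choice at a time: the scaling, the pseudocount, the filter, the model terms, the probe set of a gene and the arrays used. The number of members called was 0 in the model as described. In 3 kinds of fit it rose: where replicate 3 was modelled, where it was removed, and where arrays were weighted by quality. With the replicate number as a block it was 3 at 24 h, 1 at 48 h and 2 over all hours. Of all genes 10.5%, 8.24% and 10.9% were called there. The labels do not say whether the numbers pair the arrays. Deviations of same-numbered A arrays from their hour means correlated with medians of 0.36, 0.36 and 0.63 in replicates 1, 2 and 3. On the B chip these medians were 0.10, 0.13 and 0.32. The lowest single correlations were 0.044 on A and 0.0026 on B, both in replicate 1. With replicate 3 as a term 3, 2 and 2 members were called. With replicates 1 and 2 alone 4, 3 and 5 were, and 1 at 12 h. With array quality weights 8, 2 and 9 were. Leaving out 1 array of each chip gave 0 to 1 at 24 h (1 without 48 h replicate 3, where 3.54% of all genes were called) and 0 to 1 at 48 h (1 without 0 h or 48 h replicate 3, where 2.44% and 3.11% were). The median over members at 4 h was -0.019 under quantile normalization, and the median at 48 h ran from -0.09 to 0.13 over the leave-outs, highest without 48 h replicate 3.

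Of 43 gene results at 48 h, 16 changed sign under some alternative, all with intervals around 0. With replicates 1 and 2 alone the difference was 0.015 for Ndufb10, 0.013 for Cox4i1, 0.0082 for Cox7a2, 0.020 for Ndufa4, 0.084 for Atp5g1, 0.0015 for Atp5g2 and 0.10 for Atp5g3. With array quality weights it was 0.20 for Atp5md, 0.053 for Atp5g1 and 0.0021 for Atp5g3. With all tested probe sets of a gene averaged it was 0.092 for Sdhd, -0.054 for Cox5a and -0.026 for Cox6b1, and with median centring -0.0084 for Cox6b1. Leaving out 1 array at a time gave ranges of Ndufb10 -0.39 to 0.0018, Sdhd -0.26 to 0.063, Uqcrb -0.014 to 0.22, Cox5a -0.062 to 0.21, Atp5d -0.0084 to 0.29, Atp5md -0.48 to 0.11, Atp5l -0.21 to 0.054, Sdha -0.21 to 0.0093, Cox4i1 -0.17 to 0.071, Cox6b1 -0.050 to 0.24, Cox7a2 -0.17 to 0.049, Cox7a2l -0.18 to 0.023, Ndufa4 -0.15 to 0.018, Atp5g1 -0.19 to 0.052 and Atp5g3 -0.16 to 0.15. Beside the leave-outs given above, the Cox8b call at 48 h was also lost when only the arrays of 0 h and 48 h were fitted (limma adjusted p = 0.109, difference 1.99), and the causes of these changes were not tested. Dim probe sets such as Cox7c, Cox4i2 and Ndufa4l2 have the least signal over background.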
